A study of Gallus gallus with 8 samples.

Results

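HOX genes and their cofactors were followed across 8 RNA libraries of the chick embryo (Gallus gallus). The members were all genes of the deposited tables whose name is that of a HOX gene of clusters A to D, a CDX gene, or a PBX, MEIS or PKNOX gene. This gave 32 of the 17778 listed genes, namely 28 HOX genes (8 of cluster A, 8 of cluster B, 4 of cluster C and 8 of cluster D), CDX4, MEIS1, PBX4 and PKNOX1. Other HOX, CDX, PBX and MEIS genes were not analysed here. Each library is 1 pool of dissected tissue with no treatment or allele named in the labels. The heart gave 4 libraries, here called node (the developing sinoatrial node, labelled as the pacemaker region), junction (between atrium and ventricle, Hamburger-Hamilton or HH stages 17 to 18), atrium (its left side) and ventricle (the apex of the common ventricle). The lateral plate mesoderm gave the other 4 libraries, called posterior, field (the progenitor field of the pacemaker), left and anterior, all at HH stage 8. No group has a second library, and no stage is given for the node, atrium or ventricle in the sources used here.

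HOX proteins are homeodomain transcription factors that give cells their position along the head-to-tail axis. Within a cluster, genes with a low paralog number lie at one end and are switched on earlier and reach further towards the head, while genes with a high number come later and stay nearer the tail. CDX proteins, relatives of the fly protein Caudal, act upstream of HOX genes in posterior tissue. PBX, MEIS and PKNOX are homeodomain proteins of the TALE class that bind DNA together with HOX proteins. Retinoic acid switches on HOX genes with low numbers, and in the mouse Hoxb1 and Hoxa3 are known from progenitors that join the heart behind its first tube.

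Counts assigned to genes summed to between 10258697 (ventricle) and 17189803 (atrium) per library. Levels are CPM, in which each library's counts are divided by its total after adjustment with TMM factors. A single count was worth 0.0541 CPM in the field, the lowest, and 0.1085 CPM in the ventricle, the highest. A member is called higher or lower when CPM + 1 differs at least 2-fold between 2 libraries, the higher library has at least 5 CPM, and the exact 95% interval of the ratio of counts excludes no difference. Folds are ratios of CPM with that interval in brackets. The intervals cover counting error only, without the spread between embryos, pools or library preparations, and PCR copies of a molecule are not independent. No difference could be checked against replicates, so p-values were not computed. In bulk tissue, fewer cells of a type and less RNA per cell cannot be told apart. Levels of different genes are not set against each other, since CPM is not corrected for gene length. In sums over a cluster or list, genes with many counts weigh most.

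The tissue labels were checked against markers. All 7 measured heart muscle markers were above 1 CPM in each heart library, and their summed level there was 26500 to 31370 CPM, against 699.9 to 1205 CPM in the mesoderm libraries. HAND2, a transcription factor of the lateral plate, stood at 162.1 to 283.8 CPM in the mesoderm libraries. HAND2 was higher in the heart libraries, at 297.9 to 383.9 CPM, so it does not mark the mesoderm against the heart. Other genes of its list differed from it. OSR1, PRRX1 and GATA6 were higher in each mesoderm library than in any heart library, with OSR1 at 42.7 to 78.1 against 0 to 4.74 CPM. TBX5 and NKX2-5 were higher in each heart library, and the ranges of the remaining genes overlapped. All 4 measured pacemaker markers (ISL1, TBX3, HCN4 and CACNA1G) were called higher in the node than in either chamber. Of all genes tested, 3.11% were. TBX3 was at 95.1 CPM in the junction and 82.8 CPM in the node. These markers did not set the field apart from the anterior mesoderm. Their sum was 93.5 CPM in the field and 129.8 CPM in the anterior mesoderm. ISL1 was called lower in the field, at 6.27 against 14.7 CPM.

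Several HOX entries carry limits from the gene models. The entry of HOXB8 (chromosome 27, 3578953 to 3753229, plus strand) spans 174277 bases and holds those of HOXB5 (3584441 to 3586620), HOXB3 (3615198 to 3617697) and HOXB1 (3638118 to 3641316), so part of its counts may be reads of the others. HOXB4 is listed as a piece of 421 bases on unplaced sequence, while a RefSeq table (GRCg7b) has it on chromosome 27. HOXC12 is listed with 571 bases, also unplaced. In all, 8 members were unplaced, 23 had the chromosome that RefSeq gives, and HOXB9 had no RefSeq entry of that symbol. The build of the coordinates and the use of strand in counting are not given in the sources used here.

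Of the 32 members, 14 reached 5 CPM in at least 1 library, none had its highest level between 1 and 5 CPM, 14 had counts but stayed below 1 CPM everywhere, and 4 (HOXA10, HOXA11, HOXB13 and HOXC11) had no count in any library. The divide followed paralog number in part. Among HOX genes of paralog groups 1 to 8, 9 of 13 reached 5 CPM. In groups 9 to 13, 1 of 15 did, namely HOXC12. In groups 7 and 8 only HOXB8 did, and its entry holds those of HOXB1, HOXB3 and HOXB5. HOXD1 and HOXD4 stayed below 1 CPM, and all listed genes of cluster C fall in groups 9 to 13. The members below 1 CPM with counts were HOXA7, HOXA9, HOXA13, HOXB7, HOXB9, HOXC10, HOXC13, HOXD1, HOXD4, HOXD9, HOXD10, HOXD11, HOXD12 and HOXD13. Their largest count in any library was 9, for HOXB7 in the posterior and left mesoderm. HOXB9 had 7 counts in the posterior, 5 in the field and 8 in the left mesoderm, against 0 in the anterior mesoderm and in each heart library, where 0 counts allow up to 0.206 CPM in the atrium and 0.326 CPM in the ventricle, the 2 ends of the range for these libraries.

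**Figure D1:**
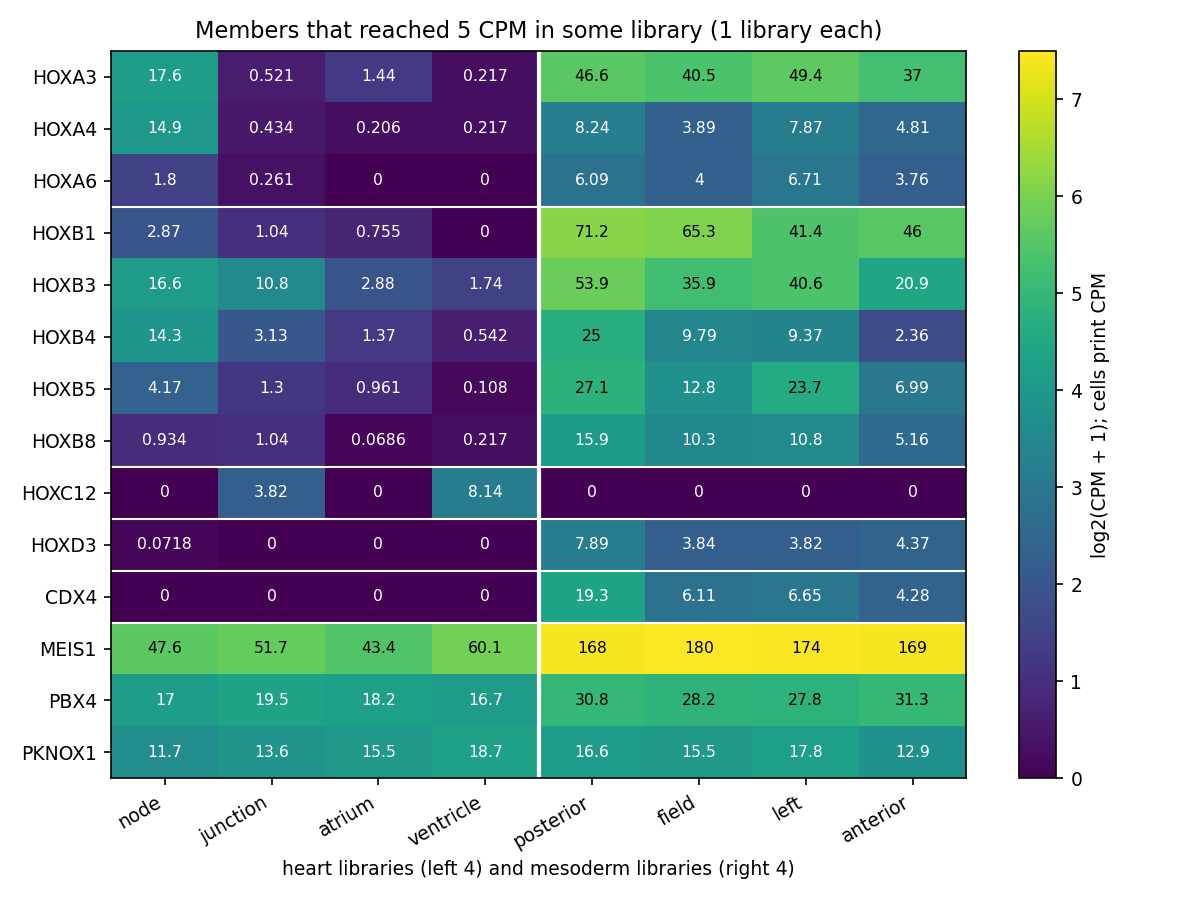
Level of the 14 members that reached 5 CPM, with heart libraries on the left and mesoderm libraries on the right; colour is log2(CPM + 1) and each cell prints CPM. HOXD3 and CDX4 pass 1 CPM in the mesoderm only, HOXA4 is highest in the node at 14.9 CPM, and HOXC12 has counts in the junction and ventricle only.

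Cluster B carried the steepest axial differences in the mesoderm. HOXB4, a paralog group 4 gene, stood at 25.0 CPM in the posterior, 9.79 in the field, 9.37 in the left and 2.36 in the anterior mesoderm, from 291, 181, 162 and 27 counts. HOXB5 stood at 27.1 CPM in the posterior, 12.8 in the field, 23.7 in the left and 6.99 in the anterior mesoderm. Both were lowest in the anterior library, and the left library lay near the field for HOXB4 but near the posterior for HOXB5. HOXB3 was at 53.9 CPM in the posterior, 35.9 in the field, 40.6 in the left and 20.9 in the anterior mesoderm. HOXB8 was at 15.9, 10.3, 10.8 and 5.16 CPM in the same 4 libraries, an order of levels shared with HOXB3. HOXB1, which in the hindbrain marks a single segment, was at 71.2 CPM in the posterior, 65.3 in the field, 41.4 in the left and 46.1 in the anterior mesoderm. Unlike the other genes of its cluster that reached 5 CPM, HOXB1 was lowest in the left library, though its interval against the anterior library (0.803 to 1.01) includes no difference.

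The 3 genes of cluster A that reached 5 CPM differed less between posterior and anterior mesoderm than HOXB3, HOXB4, HOXB5 and HOXB8. This does not cover the entries of cluster A without a gene name. The entry between HOXA4 and HOXA6 stood at 4.80 CPM in the posterior and 1.66 CPM in the anterior mesoderm. The one beside HOXA3 stood at 54.5 and 50.9 CPM. HOXA3 stood at 46.6 CPM in the posterior, 40.5 in the field, 49.4 in the left and 37.0 in the anterior mesoderm, within 1.34-fold of each other. HOXA4 stood at 8.24, 3.89, 7.87 and 4.81 CPM in those libraries, and HOXA6 at 6.09, 4.0, 6.71 and 3.76 CPM. For HOXA4 and HOXA6 the posterior and left libraries were the higher pair, and the field and anterior libraries the lower pair. HOXD3, the only member of cluster D above 1 CPM, was at 7.89 CPM in the posterior, 3.84 in the field, 3.82 in the left and 4.37 in the anterior mesoderm. Its posterior library stood apart, and the other 3 lay close together.

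Posterior against anterior mesoderm is the longest step along the axis in these data. Here 5 of the 13 members tested (at 5 CPM or more in either library) were called higher in the posterior library and 0 lower, where 1.04% of the 9056 genes tested were called higher and 0.905% lower. The called members were HOXB4 at 10.6-fold (7.12 to 16.3), CDX4 at 4.51-fold (3.30 to 6.27), HOXB5 at 3.88-fold (3.03 to 5.02), HOXB8 at 3.08-fold (2.29 to 4.20) and HOXB3 at 2.58-fold (2.22 to 3.01). All but CDX4 belong to cluster B. CDX4 stood at 19.3 CPM in the posterior, 6.11 in the field, 6.65 in the left and 4.28 in the anterior mesoderm, and had no count in the 4 heart libraries. The posterior library alone was high for CDX4, while the field and left libraries lay within 1.55-fold of the anterior one.

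The HOX genes that were tested but not called in the posterior library all had a higher value there than in the anterior one. They were HOXD3 at 1.81-fold (1.27 to 2.60), HOXA4 at 1.71-fold (1.22 to 2.43), HOXA6 at 1.62-fold (1.10 to 2.43), HOXB1 at 1.55-fold (1.39 to 1.73) and HOXA3 at 1.26-fold (1.11 to 1.44). The median log2 ratio of the 13 members was 0.67, against -0.00036 over all genes tested. The summed level of cluster B was 194.4 CPM in the posterior and 81.6 CPM in the anterior mesoderm, a ratio of 2.38 (2.21 to 2.57) that was 2.33 (2.16 to 2.53) without HOXB8. For cluster A the sums were 61.7 and 46.0 CPM, a ratio of 1.34 (1.20 to 1.51). Most of these 2 sums was HOXA3, at 46.6 and 37.0 CPM. Entries without a gene name are left out of the sums. The intervals of clusters A and B did not overlap. Cluster D, carried by HOXD3, had 8.67 CPM in the posterior and 4.37 CPM in the anterior mesoderm (ratio 1.98, 1.40 to 2.84).

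**Figure D2:**
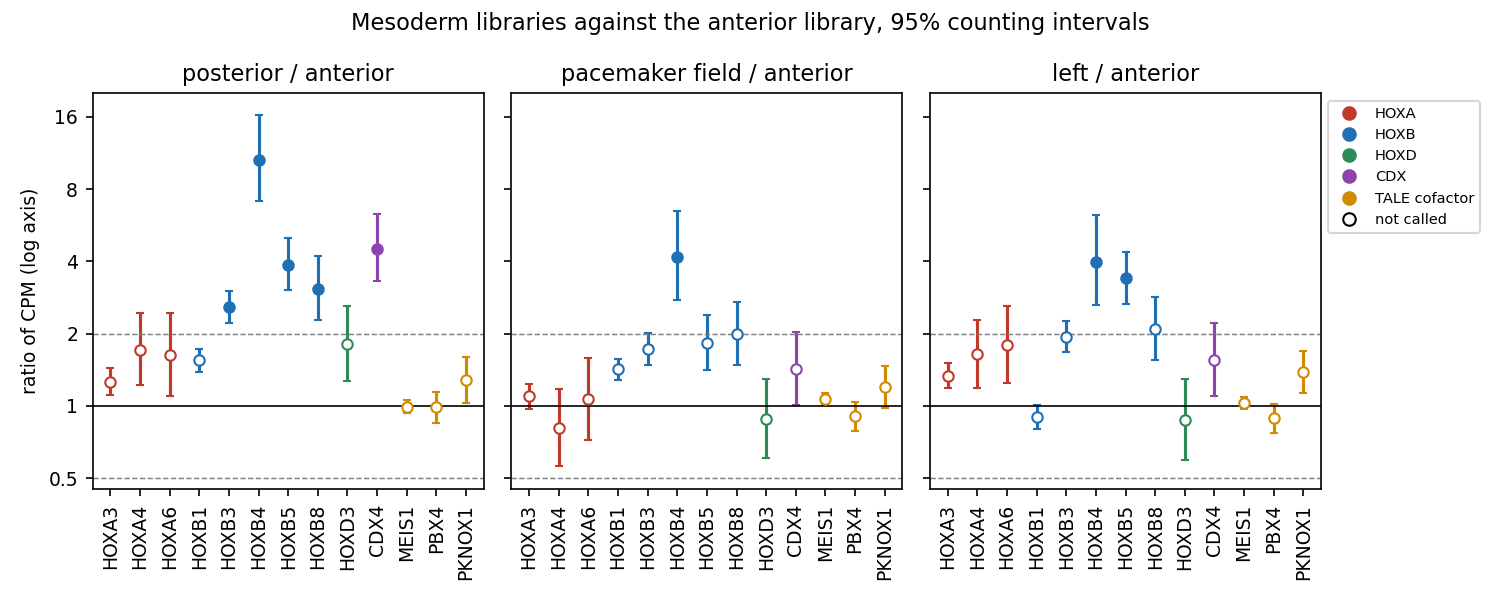
Ratio of CPM (log axis) of 3 mesoderm libraries to the anterior library for 13 members, ordered by cluster and paralog number; bars are 95% counting intervals, filled points were called, open points were not called or were under 5 CPM in both libraries, and dashed lines mark 2-fold. HOXB4 stands highest in each panel, with 10.6-fold in the posterior, 4.15-fold in the field and 3.97-fold in the left mesoderm.

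Between posterior and anterior mesoderm, the cluster A and B genes of paralog groups 3 and 4 had different ratios. The ratio of HOXB4 was 6.18 times that of HOXA4 (approximate counting interval 3.69 to 10.3), and the ratio of HOXB3 was 2.05 times that of HOXA3 (1.68 to 2.49). Both intervals exclude equal ratios. HOXB3 against HOXD3 gave 1.43 (0.981 to 2.08) and HOXA3 against HOXD3 0.698 (0.483 to 1.01), intervals that include equal ratios. The Spearman rho of the ratio with paralog number was 0.349 over the 9 HOX genes tested and 0.6 over the 5 of cluster B. Over the HOX genes tested in the other mesoderm comparisons, rho was 0.725 for field against anterior (6 genes) and 0.614 for left against anterior (8 genes). For posterior against field it was 0.426 (9 genes). So few genes cannot show a trend. Each correlation is across genes of the same pair of libraries and is a description of them. In the posterior against the anterior library, the largest ratio of cluster B was in its middle, at HOXB4, and not at HOXB8.

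The pacemaker field against the anterior mesoderm asks where the HOX levels of the field lie. HOXB4 was called higher in the field, at 4.15-fold (2.76 to 6.47), and was the only call among 10 members tested. None was lower. Over all 8992 genes tested, 0.267% were called higher and 0.389% lower (24 and 35 genes, and 44 and 33 with scaling to the total count only). HOXB8 at 1.99-fold (1.48 to 2.72), HOXB5 at 1.83-fold (1.41 to 2.38), HOXB3 at 1.72-fold (1.48 to 2.0), CDX4 at 1.43-fold (1.01 to 2.04) and HOXB1 at 1.42-fold (1.28 to 1.57) had intervals above no difference but were not called. HOXA3 was at 1.10-fold with an interval of 0.970 to 1.24. The median log2 ratio of the 10 members was 0.46, against 0.0070 over all genes. Summed cluster B was 1.65-fold (1.53 to 1.78) and summed cluster A 1.06-fold (0.954 to 1.19) the anterior level. HOXB4 differed from HOXA4 here too, with a ratio 5.12 times as large (3.0 to 8.75).

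Posterior mesoderm against the field is the other step of the axis. CDX4 at 3.16-fold (2.51 to 4.0), HOXB4 at 2.55-fold (2.11 to 3.09) and HOXB5 at 2.12-fold (1.79 to 2.53) were called higher in the posterior library, 3 of 13 members, and 0 were lower. Of 9028 genes tested, 0.299% were called higher and 0.709% lower. The call of HOXB5 lay near the threshold, with a log2 ratio of 1.03, and was lost with scaling to the total count (0.96). HOXA4 at 2.12-fold (1.54 to 2.91) and HOXD3 at 2.06-fold (1.49 to 2.84) were not called, as the added 1 CPM lowers the ratio of genes at this level. For HOXB4 and HOXA4 the ratios of this step were close, 1.21 times apart (0.843 to 1.72), an interval that includes equal ratios, unlike that of the field against the anterior mesoderm.

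Taken in the order posterior, field, anterior, 9 of the 13 members that reached 5 CPM in these libraries had descending levels, without any fold threshold, and 0 of 13 had ascending ones. Over all 9155 genes at 5 CPM, 18.4% descended and 16.2% ascended. The descending members were HOXA3, HOXA6, HOXB1, HOXB3, HOXB4, HOXB5, HOXB8, CDX4 and PKNOX1. HOXA4 and HOXD3 were lowest in the field, and MEIS1 and PBX4 followed no order. Some of these steps were small: the posterior and field levels of HOXB1 differed by 1.09-fold (0.997 to 1.19) and those of PKNOX1 by 1.07-fold (0.887 to 1.29), within counting error.

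The left mesoderm had 2 of 12 members called higher than in the anterior library, HOXB4 at 3.97-fold (2.63 to 6.21) and HOXB5 at 3.39-fold (2.67 to 4.37), and 0 lower. Of 9075 genes, 0.848% were called higher and 0.529% lower (77 and 48 genes, and 129 and 29 with scaling to the total count only, under which HOXB3 and HOXB8 were called as well). HOXB8 at 2.09-fold (1.55 to 2.85) and HOXB3 at 1.94-fold (1.68 to 2.26) were just under the threshold. HOXB1 was not higher in the left library, at 0.90-fold (0.803 to 1.01). The label gives the left library no position between head and tail, so side and position cannot be told apart here. This comparison, like those of the posterior and field libraries, rests on the same anterior library.

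Other mesoderm markers moved in the same comparisons. Of all genes tested, 1.04% were called higher in the posterior than in the anterior library. Between posterior and anterior mesoderm, TBX6 (listed as TBX6L), of paraxial mesoderm, was called higher at 12.95 against 4.63 CPM. Its list of 3 measured genes summed to 15.9 CPM in the posterior, 4.17 in the field, 7.06 in the left and 4.89 in the anterior mesoderm, with the somite gene UNCX at 0 in all of them. LHX1, of intermediate mesoderm, stood at 11.6 CPM in the posterior, 3.89 in the field, 8.97 in the left and 1.92 in the anterior mesoderm. The 3 measured genes of that list summed to 90.3, 62.6, 52.7 and 47.4 CPM in these libraries. TTR of the endoderm list was called higher in the posterior library, at 74.0 against 32.9 CPM, as 1 of 5 tested, and that list summed to 1075 CPM in the posterior and 956.7 CPM in the anterior mesoderm. UPK3B of the epicardium and mesothelium list was called higher at 7.64 against 3.23 CPM, as 1 of 4 tested. The others were not called. ALDH1A2 had a higher value in the posterior library (521.9 against 280 CPM). TCF21 (78.9 against 100.5 CPM) and SEMA3D (20.4 against 26.9 CPM) had lower ones. Genes of the lateral plate and heart-forming list went the other way where called. OSR1 of that list had a higher value in the posterior than in the anterior library, at 78.07 against 45.35 CPM, and was not called. Called lower were 4 of 10 tested in the posterior library, 3 of 10 in the field and 4 of 10 in the left mesoderm. In the posterior library these were GATA4, ISL1, TBX5 and NKX2-5. Against the anterior library, 0.905% of all genes tested were called lower in the posterior, 0.389% in the field and 0.529% in the left mesoderm. TBX5 was at 8.92 CPM in the posterior, 24.0 in the field, 17.6 in the left and 110.4 in the anterior mesoderm. The part of these tissues in the HOX differences was not tested.

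In the heart, 4 of the 28 HOX genes reached 5 CPM in the node, 1 in the junction (HOXB3), 0 in the atrium and 1 in the ventricle (HOXC12). HOXA3 stood at 17.6 CPM in the node, 0.521 CPM in the junction, 1.44 CPM in the atrium and 0.217 CPM in the ventricle. HOXA4 stood at 14.9 CPM in the node, 0.434 in the junction, 0.206 in the atrium and 0.217 in the ventricle. The node was the only heart library in which either gene passed 2 CPM, and the other values rest on 2 to 21 counts. HOXB4 had 14.3 CPM in the node, 3.13 in the junction, 1.37 in the atrium and 0.543 in the ventricle. HOXB3 had 16.6 CPM in the node, 10.8 in the junction, 2.88 in the atrium and 1.74 in the ventricle. For both cluster B genes the levels descended from node to junction to atrium to ventricle. HOXA6 at 1.80, HOXB1 at 2.87 and HOXB5 at 4.17 CPM were also highest in the node among heart libraries but did not reach 5 CPM there. HOXD3 had 1 count in the node and 0 in the other heart libraries.

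Node against atrium gave 4 of 7 members called higher and 0 lower, where 4.55% of 9594 genes were called higher and 2.97% lower (437 and 285 genes, and 628 and 186 with scaling to the total count only). HOXA3 was 12.2-fold (7.81 to 20.1), HOXB4 10.4-fold (6.57 to 17.4) and HOXB3 5.76-fold (4.13 to 8.20) higher. For HOXA4 the ratio was 72.6 (24.5 to 354.8), from 208 counts in the node and 3 in the atrium. Node against ventricle gave 4 of 8 higher and 1 lower, where 7.07% of 9635 genes were called higher and 4.66% lower. HOXB4 was 26.4-fold (11.1 to 82.0) and HOXB3 9.56-fold (5.76 to 17.0) higher, and with 2 counts each in the ventricle HOXA3 had a ratio of 81.1 (22.2 to 673.5) and HOXA4 one of 68.9 (18.8 to 572.3). The lower member was HOXC12, with 0 counts in the node and 75 in the ventricle, at least 37.8-fold lower against 3 counts in the node library. HOXA3, HOXA4, HOXB3 and HOXB4 were thus called higher than both chambers, 4 of 8 members and 0 lower, against 3.11% and 1.46% of 9787 genes. The summed level of cluster A was 34.3 CPM in the node against 1.72 CPM (atrium) and 0.543 CPM (ventricle), and that of cluster B was 38.9 CPM against 6.04 and 2.71 CPM.

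**Figure D3:**
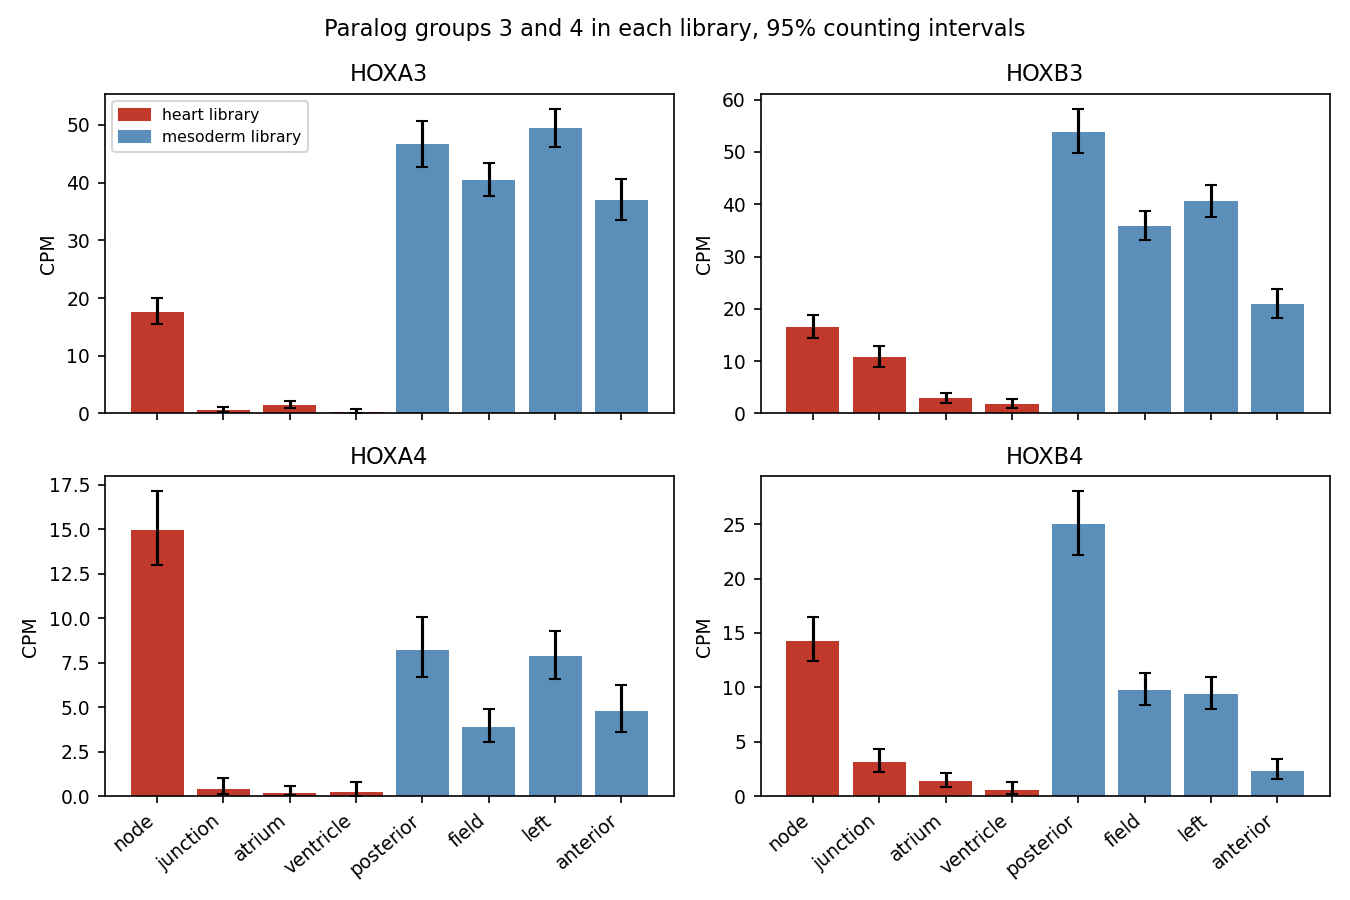
CPM of the paralog group 3 genes (top) and group 4 genes (bottom) of clusters A and B in the 8 libraries; bars start at 0 and error bars are 95% counting intervals. HOXA3 and HOXA4 are near 0 in the heart outside the node, HOXB3 keeps 10.8 CPM in the junction, and HOXA4 at 14.9 CPM is higher in the node than in any mesoderm library.

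The junction shared only part of this. HOXB3 was called higher there than in the atrium, at 3.74-fold (2.61 to 5.44), as 1 of 4 members tested, and than in the ventricle, at 6.20-fold (3.67 to 11.2), as 1 of 5. Against the atrium 3.59% of 9529 genes were called higher and 3.23% lower, and against the ventricle 6.72% of 9558 and 4.5%. Called higher than both chambers was 1 of 5 members (2.11% of 9720 genes) and lower than both 0 of 5 (1.54%). Against the atrium, the ratio of HOXB3 was 10.3 times that of HOXA3 (3.91 to 27.3), with 6 counts of HOXA3 in the junction. Against the ventricle it was 2.58 times (0.480 to 13.9), an interval that includes equal ratios. Summed cluster A was 1.56 CPM in the junction and 1.72 CPM in the atrium (ratio 0.911, 0.469 to 1.74), whereas summed cluster B was 17.5 and 6.04 CPM (ratio 2.89, 2.24 to 3.76). Against the ventricle the ratio was 2.88 (1.03 to 9.93) for cluster A, from 18 counts in the junction and 5 in the ventricle, and 6.44 (4.24 to 10.2) for cluster B. Without the 5 CPM minimum, HOXB1, HOXB4 and HOXB5 were also called higher in the junction than in the ventricle. The share of all genes called at that setting is not given here.

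Markers of tissues beside the heart muscle moved with the node and junction. For the node, 4.55% of all genes tested were called higher and 2.97% lower against the atrium, and 7.07% and 4.66% against the ventricle. For the junction, 3.23% were called lower against the atrium and 4.5% against the ventricle. All 5 tested epicardial markers were called higher in the node than in either chamber, led by TCF21 with 138.4 CPM in the node against 15.9 CPM (atrium) and 23.3 CPM (ventricle). The 6 measured genes of that list summed to 703.4 CPM in the node, 706.1 in the junction, 281.9 in the atrium and 208.5 in the ventricle, with UPK3B at 0 in the node and the ventricle. Most of the sum was ALDH1A2, with 517.2 CPM in the node and 469.8 CPM in the junction. Endoderm genes were higher in the node for 3 of 4 tested against each chamber (APOA1, FGA and FGB), and their list summed to 1524 CPM in the node, 447.3 in the junction, 649.7 in the atrium and 121.4 in the ventricle, with FGA at 0 in the heart libraries other than the node. Of 4 measured neural crest genes SNAI2 was called higher in the node (28.9 CPM there, 8.30 CPM in the atrium, 7.81 CPM in the ventricle), while FOXD3 and PAX3 had 0.0718 CPM and SOX10 0.216 CPM there. Of 3 measured neural genes, SOX2 and PAX6 were at 0.0718 CPM each in the node. The third, NCAM1, passed no call against either chamber, with 113.5 CPM in the node and 114.6 CPM in the junction against 194.7 CPM (atrium) and 147.7 CPM (ventricle). The list of paraxial mesoderm had 0.0718 CPM in the node and 0 in the ventricle. Blood genes were called lower for 1 of 4 tested in the node and 3 of 4 in the junction, each against the atrium, and their list summed to 12850 CPM in the node, 8901 in the junction, 24600 in the atrium and 11380 in the ventricle. Endothelial genes were called lower for 4 of 4 tested in the junction and 1 of 4 (ROBO4) in the node, each against the ventricle, and for 1 of 5 (TEK) in the junction against the atrium. That list summed to 76.2 CPM in the node, 27.2 in the junction, 67.6 in the atrium and 113.9 in the ventricle. TAL1 is in both lists. The part of these tissues in the HOX differences of the node and junction was not tested. Region and stage cannot be told apart where the stage is not given.

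Node against the pacemaker field compares the node with the mesoderm from which it is held to form, and here region of the embryo, stage and tissue makeup cannot be told apart. Of 11 members tested 1 was called higher and 7 lower in the node, where 15.3% of 9820 genes were called higher and 8.55% lower (1504 and 840 genes, and 1261 and 1261 with scaling to the total count only). The 1 called higher was HOXA4, at 14.9 CPM in the node against 3.89 CPM in the field, 3.84-fold (2.92 to 5.09). HOXB4 had 14.3 CPM in the node against 9.79 CPM in the field (1.46-fold, 1.19 to 1.80) and was not called. All other tested members had lower values in the node than in the field. CDX4 had 0 counts in the node and was at least 28.4-fold lower. HOXB1 was 22.7-fold (16.6 to 32.0), HOXB8 11.0-fold (6.28 to 21.1), MEIS1 3.79-fold (3.48 to 4.12), HOXB5 3.06-fold (2.29 to 4.16), HOXA3 2.30-fold (1.99 to 2.67) and HOXB3 2.16-fold (1.86 to 2.53) lower. HOXD3 was below 5 CPM in both and so was not tested, with 0.0718 CPM in the node against 3.84 CPM in the field.

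**Figure D4:**
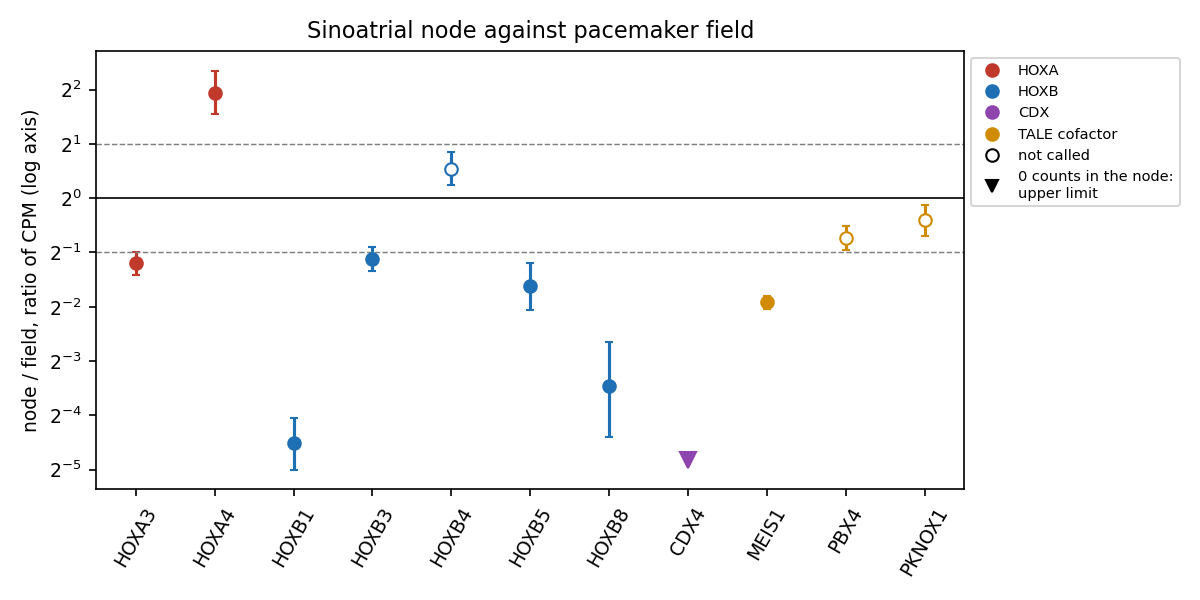
Ratio of CPM in the node to that in the pacemaker field (log axis) for the 11 members tested, with 95% counting intervals; filled points were called, open points were not, the triangle is an upper limit for CDX4 with 0 counts in the node, and dashed lines mark 2-fold. HOXA4 stands above 2-fold at 3.84, HOXB4 above no difference at 1.46, and HOXB1, HOXB8 and CDX4 lie lowest.

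The share of the field level that the node held varied within and between paralog groups. It was 4.40% for HOXB1 of group 1. In group 3 it was 43.5% for HOXA3, 46.2% for HOXB3 and 1.87% for HOXD3. In group 4 it was 383.7% for HOXA4 and 146% for HOXB4. For the higher groups it was 32.6% for HOXB5, 44.9% for HOXA6 and 9.09% for HOXB8. HOXA6 and HOXD3 were under 5 CPM in both libraries. The Spearman rho of the ratio with paralog number was 0.073 over 7 HOX genes, too few to show a trend or the lack of one. Within group 4, the node to field ratio of HOXB4 was 0.381 times that of HOXA4 (0.272 to 0.532), and within group 3 that of HOXB3 was 1.06 times that of HOXA3 (0.863 to 1.31), an interval that includes equal ratios. HOXD3, with 1 count in the node, differed from both, as HOXB3 had 24.7 times (3.41 to 178.8) and HOXA3 23.3 times (3.21 to 168.3) its ratio. Summed cluster A stood at 34.3 CPM in the node against 48.9 CPM in the field (ratio 0.702, 0.627 to 0.786) and cluster B at 38.9 against 134.6 CPM (ratio 0.289, 0.263 to 0.317). The sum of cluster A leaves out its entries without a gene name. The one beside HOXA3 stood at 1.94 CPM in the node and 59.0 CPM in the field. The one between HOXA4 and HOXA6 stood at 1.15 and 2.11 CPM. The ratio of cluster A thus covers its named genes only, and a difference between whole clusters cannot be read from it. All 28 HOX genes together summed to 73.5 CPM in the node, 23.3 in the junction, 7.89 in the atrium, 11.5 in the ventricle, 264.8 in the posterior, 187.8 in the field, 195.6 in the left and 131.9 in the anterior mesoderm.

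The cofactors of the TALE class were present in every library, and across the mesoderm MEIS1 and PBX4 varied less than any HOX gene that reached 5 CPM there. MEIS1 stood at 47.6 CPM in the node, 51.7 in the junction, 43.4 in the atrium, 60.1 in the ventricle, 167.6 in the posterior, 180.3 in the field, 173.5 in the left and 169.2 in the anterior mesoderm. The 4 mesoderm values lay within 1.08-fold of each other and all above the heart. PBX4 was at 17.0, 19.5, 18.3 and 16.7 CPM in node, junction, atrium and ventricle, and at 30.8, 28.2, 27.8 and 31.3 CPM in the posterior, field, left and anterior mesoderm. PKNOX1, also known as PREP1, was at 11.7, 13.6, 15.5 and 18.7 CPM in those heart libraries and at 16.6, 15.5, 17.8 and 12.9 CPM in those of the mesoderm. PKNOX1 was the cofactor whose heart and mesoderm ranges overlapped. Between posterior and anterior mesoderm MEIS1 was at 0.99-fold (0.930 to 1.06), PBX4 at 0.98-fold (0.848 to 1.14) and PKNOX1 at 1.28-fold (1.03 to 1.60). In the node PKNOX1 had its lowest level of all libraries, 1.59-fold (1.28 to 1.99) under the ventricle, which was not called. Of the 14 members that reached 5 CPM, 10 had all mesoderm libraries above all heart libraries. The exceptions were HOXA4, HOXB4, HOXC12 and PKNOX1. The share of all genes with such separated ranges was not computed, so whether this count is unusual is not known.

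Genes that act upstream of the HOX clusters were described by lists. Of the retinoic acid list 15 of 19 genes were found. Between posterior and anterior mesoderm 2 of 12 tested were called higher, ALDH1A1, a retinaldehyde dehydrogenase, at 14.9 against 6.20 CPM (2.41-fold, 1.82 to 3.22), and STRA6, a retinol transporter, at 64.8 against 29.5 CPM (2.19-fold, 1.93 to 2.50). RDH10, which makes retinaldehyde, was called lower at 19.4 against 40.7 CPM. The median log2 ratio of the list was 0.21. In the field and the left mesoderm ALDH1A1 alone was called higher than in the anterior library. Of the posterior signals, found for 10 of 18 entries, 2 of 3 tested were called higher in the posterior library: the WNT ligand WNT8C at 20.5 against 3.67 CPM (5.59-fold, 4.01 to 7.95) and TBX6, given above. WNT8C stood at 4.49 CPM in the field. Polycomb and trithorax genes, which keep HOX clusters silent or active, were found for 15 of 27, and 0 of 12 tested were called in any of the 4 mesoderm comparisons. With 0.267% to 1.04% of all genes called in a given direction there, this count is near the background.

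In the node, the retinoic acid list had 3 of 10 tested called higher and 1 lower than in the atrium, and 6 of 10 higher and 1 lower than in the ventricle. Over all genes tested, 4.55% were called higher and 2.97% lower against the atrium, and 7.07% and 4.66% against the ventricle. ALDH1A2, the main enzyme of retinoic acid synthesis in the embryo, stood at 517.2 CPM in the node, 469.8 in the junction, 252.4 in the atrium and 168.7 in the ventricle. CYP26A1, which breaks retinoic acid down, had 8.98 CPM in the node against 1.78 CPM (atrium) and 0.760 CPM (ventricle). The receptor RARB was the gene called lower, with 14.5 CPM in the node against 31.0 CPM (atrium) and 35.7 CPM (ventricle). Against the field the list had 2 of 13 higher and 8 lower, where 15.3% of all genes tested were called higher and 8.55% lower. The higher count is thus near the background. One of the 2 was CYP26B1, at 42.3 CPM in the node against 1.19 CPM in the field. Polycomb and trithorax genes had 0 of 9 called in the node against either chamber, where 2.97% to 7.07% of all genes were called in a given direction, so that this count too is near the background. Against the field 3 of 12 were lower in the node (JARID2, CBX2 and ASXL1), beside the 8.55% of all genes, with a median log2 ratio of -0.77. FGF8, the 1 gene of the posterior signals tested between node and chambers, had 5.60 CPM in the node against 0.412 CPM (atrium) and 0.1085 CPM (ventricle). Against the field FGF8 was called higher in the node and TBXT lower, the 2 genes tested.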

How the data were processed

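RNA was extracted with Trizol from pooled tissue, polyadenylated RNA was selected and libraries were sequenced from both ends with 36-base reads, per the labels' protocols. Bowtie and TopHat are named, without versions, per the submitters' processing notes. The gene annotation, build, counting program and use of strand are not given in the sources used here. Per the file headers, the authors deposited CPM for 8 libraries, which equal counts divided by their total, and read counts for 7, each count column standing in the table of another library and matched by its name. The posterior counts were recovered from the deposited CPM (100% whole reads within 0.01). Every value column was used.

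Counts were scaled with TMM (edgeR 4.0.16, R 4.3.3) over all 8 libraries. Log2 ratios used CPM + 1, which understates differences of low genes. Ratio intervals are exact (Clopper-Pearson, 95%), those of ratios of ratios are normal approximations on the log scale, and both cover counting error only. A value of 0 was set to 3 counts of its library for a bound. No test across replicates was possible. Names such as HXA3 are given as HOXA3 where the chromosome did not contradict RefSeq. Of 207 entries in 17 gene lists, 109 were found, and some of their values are not reported here. The named genes were the called members, uncalled members at 5 CPM or more beside them, and up to 4 called genes of each list. The members and lists were chosen with earlier results of these data known. The call rule was tested on simulated data. Alternatives were other scalings, pseudocounts, minimum levels and folds.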

Additional observations from a re-analysis of the deposited data

How the results depend on the processing

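No paired analysis was possible because each group has 1 library. Of the 30 called ratios of members, 8 lost their call at a fold of 3, 4 with a pseudocount of 5 CPM, 1 with scaling to the total count, and 0 with DESeq2 size factors, TMM factors from the 2 libraries compared or a pseudocount of 0.5 CPM. None changed direction under these scalings and pseudocounts. The fold of 1.5 and the lower minimums cannot end a call. The share of all genes called is not given here for other minimums and folds. The counts of members at those settings therefore cannot be set against a background. With a minimum of 1 CPM or with none, 7 members were called higher in the node against the atrium and 7 against the ventricle (adding HOXA6, HOXB1 and HOXB5). In the junction they numbered 2 against the atrium (adding HOXC12, an unplaced entry) and 4 against the ventricle. A fold of 1.5 gave 8 higher for posterior against anterior mesoderm, 5 for posterior against field, 6 for left and 4 for field against anterior, and lower calls of 2 for node against ventricle (adding PKNOX1) and 1 for junction against ventricle (HOXC12). A fold of 3 left 3 higher for posterior against anterior mesoderm (HOXB4, HOXB5 and CDX4), 0 for posterior against field, and 4 lower for node against field. In the left against the anterior mesoderm, scaling to the total count gave 4 higher, and a pseudocount of 5 CPM gave 1, losing HOXB4 (log2 ratio 0.97). With that pseudocount HOXB3 (-0.92) and HOXB5 (-0.95) also lost their call in the node against the field, and HOXB5 (0.85) in the posterior against the field. Other counts stayed within 1.5 times. Scaling to the total count moved the median log2 ratio of all genes by 0.12 for field and 0.16 for left against anterior, 0.22 for node against atrium, 0.14 for node against ventricle and -0.20 for node against field. Leaving out the HOXB8 entry was an alternative chosen after seeing the data. It could remove only the calls of HOXB8, as each gene is called on its own counts. It therefore does not show whether the overlap of HOXB8 with HOXB1, HOXB3 and HOXB5 changed any count. Members at 2 to 6 counts in a library have wide intervals, and depth does not show whether they are absent there. Examples are HOXA4 in the heart outside the node and HOXA3 in the junction and ventricle. In the atrium HOXA3 had 21 counts. The counting intervals do not cover differences between pools.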

Other observations

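HOXC12 was singled out after its values were seen. It was the only member of paralog groups 9 to 13 above 1 CPM, with 44 counts (3.82 CPM) in the junction and 75 counts (8.14 CPM) in the ventricle. It had 0 counts in the node, the atrium and all 4 mesoderm libraries. Of the 17778 listed genes, 1424 had 0 counts in those 6 libraries, and 161 of these had a count in the ventricle or the junction. HOXC12 was the only one with at least 44 counts in both. Its neighbours in number, HOXC11 and HOXC13, had no count in the junction or the ventricle. The 571 bases listed for HOXC12 lie on unplaced sequence, and whether the reads come from that gene was not tested.

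Of the entries inside the HOXA cluster that carry no gene name, 2 passed 1 CPM. The entry Q804C5 (chromosome 2, 32513651 to 32519213), beside HOXA3, stood at 1.94 CPM in the node, 0.0869 in the junction, 0.137 in the atrium and 0 in the ventricle. The mesoderm levels were 54.5 CPM in the posterior, 59.0 in the field, 58.9 in the left and 50.9 in the anterior mesoderm. Its heart levels rest on 27 counts in the node, 1 in the junction, 2 in the atrium and 0 in the ventricle, so the node was the highest of the heart libraries. ENSGALG00000021834 (32546996 to 32548606), between HOXA4 and HOXA6, stood at 1.15 CPM in the node, 0 in the other heart libraries, 4.80 in the posterior, 2.11 in the field, 3.99 in the left and 1.66 in the anterior mesoderm, with the posterior and left libraries the higher pair.

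Of 8 measured genes that flank the HOX clusters, 6 were tested between node and chambers. SKAP2, which lies beside HOXA in mammals, was the 1 called higher in the node than in either chamber. Of all genes tested, 3.11% were. SKAP2 stood at 32.2 CPM in the node, 9.12 in the junction, 9.20 in the atrium and 10.7 in the ventricle. In the mesoderm SKAP2 stood at 138.2 CPM in the posterior, 246.3 in the field, 233.6 in the left and 180.1 in the anterior library. Between posterior and anterior mesoderm 0 of the 6 flanking genes tested were called. With 1.04% of all genes called higher there and 0.905% lower, this count is near the background. KIAA1715, which lies beside HOXD, was called higher in the node than in the field (73.5 against 18.9 CPM), and SKAP2 and SMUG1 lower. In that comparison 15.3% of all genes tested were called higher and 8.55% lower. EVX1 and EVX2, which end the HOXA and HOXD clusters, stayed under 1 CPM in every library. The 1 found gene of 13 other TALE entries, MKX, stayed below 0.5 CPM.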
